A study of Mus musculus with 6 samples.

Results

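The apical polarity complexes examined here are 9 genes of the Crumbs, PAR and lateral polarity groups, namely Crb3, Pals1, Patj, Pard3, Pard6b, Prkci, Llgl2, Epb41l5 and Marveld3. They were chosen by name, with earlier results of these data known. Each matched 1 row of the 27179 genes in the deposited count table through its Entrez identifier (older symbols are Mpp5 for Pals1 and Inadl for Patj). Messenger RNA was sequenced from mouse lung epithelium at embryonic day E16.5, after EpCAM-positive cells had been collected by flow sorting. The Grhl2_cKO group (n = 3, replicates 1, 5 and 10) was Shh-Cre;Grhl2f/-, with 1 floxed and 1 deleted allele of Grhl2, the gene of the epithelial transcription factor grainyhead-like 2. The control group (n = 3, replicates 1, 3 and 7) was Shh-Cre;Grhl2f/+, with 1 floxed and 1 intact allele. Shh-Cre, a recombinase expressed under control of the Sonic hedgehog gene in embryonic lung epithelium, was carried by both groups, so controls are also deleted for 1 allele wherever Cre acted. Each group held 2 male samples and 1 female sample, and the labels do not say whether a sample was 1 embryo, so the p-values rest on the spread among samples, which may be technical.

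Epithelial cells have an apical face towards the lumen and a basolateral face towards their neighbours and the basement membrane. The Crumbs complex (CRB, PALS1, PATJ) and the PAR complex (PAR3, PAR6 and an atypical protein kinase C) mark the apical side and the junction belt, and lateral proteins of the LGL and FERM families limit how far the apical domain spreads. In the lung this polarity accompanies the opening and branching of the epithelial tubes, and it is studied mostly at the level of protein position, which RNA counts do not measure.

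The libraries held 13472216 to 17228762 counts in genes, and same-genotype libraries were further apart than sampling of reads alone gives (chi-square over its degrees of freedom 7.72 to 12.9). Grhl2 stood at 105.3, 109.2 and 115.3 CPM (counts scaled to library size with TMM factors) in Grhl2_cKO replicates 1, 5 and 10, against 149.2, 147.9 and 146.0 CPM in control replicates 1, 3 and 7. That was 74.4% of control (edgeR adjusted p = 0.0026), and counts are sums over the whole gene, so reads from outside the floxed part can remain. Epcam, the gene of the sorted protein, fell to 67.6% of control (edgeR adjusted p = 0.00412). Summed markers of ciliated cells were 68.1 to 109.1 CPM in Grhl2_cKO and 167.7 to 224.3 CPM in control, with 12 of 12 markers below every control library. Over all tested genes, 9.89% lay below every control library in each Grhl2_cKO library and 8.17% above. Summed markers of secretory airway cells were 118.4 to 242.7 CPM in Grhl2_cKO and 276.3 to 379.3 CPM in control, with 5 of 7 below. The endothelial sum (8 markers) was 213.9 to 229.6 CPM in Grhl2_cKO and 171.2 to 240.8 CPM in control, and the mesenchymal sum (8 markers) 837 to 1706 CPM in Grhl2_cKO and 864.3 to 1385 CPM in control, with Grhl2_cKO replicate 1 the highest. Heart muscle markers summed to 215.3 to 414.8 CPM in Grhl2_cKO and 160.9 to 188.9 CPM in control. Of the 7 tested heart markers 1, Myh7, lay above every control library (200.6, 191.6 and 196.0 CPM in Grhl2_cKO replicates 1, 5 and 10, against 146.6, 138.5 and 139.2 CPM in control replicates 1, 3 and 7), and 6 overlapped, with Grhl2_cKO replicate 1 the highest library. Neuroendocrine markers summed to 85.1 to 98.5 CPM in Grhl2_cKO and 69.0 to 76.5 CPM in control, with 5 of 6 above. Most of this sum was Uchl1, at 68.06 to 77.51 CPM in Grhl2_cKO and 58.02 to 62.77 CPM in control, which was not called (edgeR adjusted p = 0.103). The 7 blood and immune markers summed to 14.96 to 28.48 CPM in Grhl2_cKO and 14.46 to 28.62 CPM in control, of which the red cell gene Hba-a1, uncertain because it has a near-identical copy, made up 6.68 to 18.95 CPM in Grhl2_cKO and 5.81 to 19.21 CPM in control, and the leukocyte gene Ptprc 0.61 CPM or less. No marker of these 7 lists was at 0 in every library. Sftpc, the type 2 cell surfactant gene, was at 12590 CPM or more in every library. The 6 type 2 markers, mostly Sftpc, summed to 16960 to 20770 CPM in Grhl2_cKO and 17610 to 19420 CPM in control. Of these 6, 4 had a log2 fold change below 0 and 2 above, and the groups overlapped for 4. The 6 type 1 cell markers summed to 1034 to 1234 CPM in Grhl2_cKO and 957.1 to 1199 CPM in control, and all 6 overlapped. In bulk samples fewer cells of a type and less RNA per cell cannot be told apart, and the part that these differences in cell makeup play in the results below was not tested.

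None of the 9 apical polarity genes passed the test between the genotypes. In the edgeR quasi-likelihood test over all 14842 genes tested, 3.62% of genes were called at an adjusted p under 0.05, of which 2.39% of genes fell and 1.23% rose, and 0 of the 9 were called in either direction. At an unadjusted p under 0.05 the count was also 0 of 9, against 13.3% of all genes, and DESeq2 and limma-voom called 0 of 9 as well. The mean level in Grhl2_cKO lay between 93.7% of control for Pals1 and 104.5% for Marveld3, with 6 of 9 genes below control and 51.5% of all tested genes below it. The median log2 fold change was -0.04 over the 9 genes and 0.00 over all tested genes. All 9 passed the filter on low counts, with 396 to 4109 counts per library, so counting alone gives a coefficient of variation of 1.61% to 4.56% at their mean counts. The mean counts of the 9 ran from 480.7 to 3852. Among the 6328 tested genes with a mean count in that range, 226 (3.57%) were called, the smallest called change being 0.23 on the log2 scale.

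**Figure D1:**
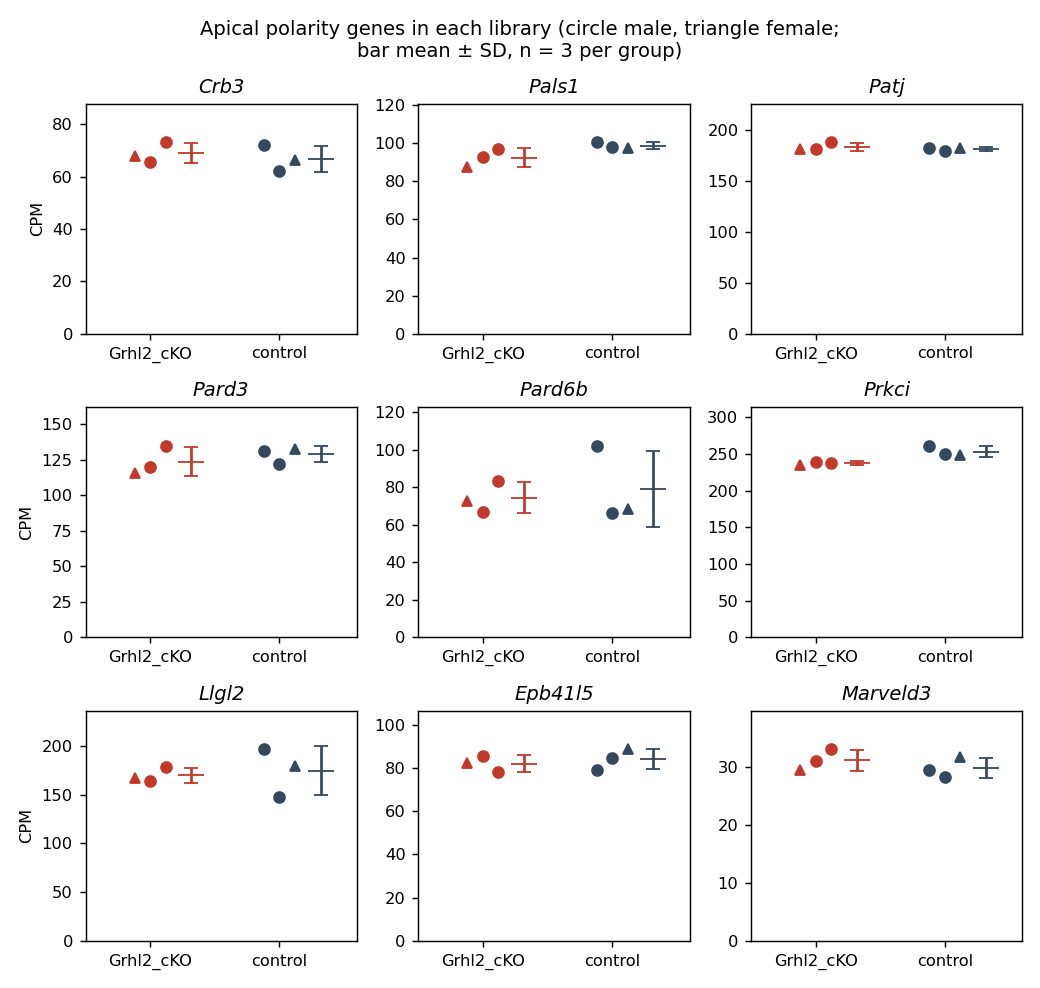
CPM of the 9 apical polarity genes in each library, with Grhl2_cKO on the left and control on the right of every panel (circles male, triangles female, bars mean ± SD, n = 3 per group, vertical axes from 0). The groups overlap for 7 genes; for Pals1 and Prkci the 3 Grhl2_cKO libraries lie just below the 3 control libraries.

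Of the Crumbs complex, Crb3 encodes the small transmembrane Crumbs protein of epithelia (Entrez 224912, chromosome 17, 57062201 to 57065918, mm10). It stood at 67.8, 65.6 and 73.2 CPM in Grhl2_cKO replicates 1, 5 and 10, against 72.0, 61.9 and 66.2 CPM in control replicates 1, 3 and 7. The groups overlapped, with Grhl2_cKO replicate 10 the highest and control replicate 3 the lowest library. The genotypes differed by a log2 fold change of 0.05 ± 0.07 (SE, 3 libraries each; edgeR adjusted p = 0.919), with a 95% interval of 92.2% to 116% of control.

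Pals1, a scaffold that binds the Crumbs tail and joins it to PATJ (Entrez 56217, chromosome 12, 78748882 to 78840714), stood at 87.5, 92.9 and 97.3 CPM in Grhl2_cKO replicates 1, 5 and 10. Control libraries 1, 3 and 7 had 100.7, 98.0 and 97.8 CPM. Every Grhl2_cKO library was below every control library, the closest pair being 97.3 and 97.8 CPM. The difference did not pass (log2 fold change -0.09 ± 0.06, edgeR adjusted p = 0.616), and its interval was 85.5% to 103% of control.

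Patj, a scaffold with many PDZ domains (Entrez 12695, chromosome 4, 98395560 to 98719603), was the least variable of the 9 among controls. It stood at 181.4, 180.8 and 188.0 CPM in Grhl2_cKO replicates 1, 5 and 10, against 182.0, 179.3 and 182.1 CPM in control replicates 1, 3 and 7. The groups overlapped, with Grhl2_cKO replicate 10 the highest library (log2 fold change 0.02 ± 0.05, edgeR adjusted p = 0.97, interval 93.6% to 110% of control). The RefSeq span of Patj holds 3 long noncoding RNA genes and 1 pseudogene, and the sources used here do not name the strand setting of the counting, so reads of overlapping genes may not be separated.

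Of the PAR complex, Pard3 encodes the scaffold that recruits PAR6 and the kinase to the junction belt (Entrez 93742, chromosome 8, 127063381 to 127612286). It stood at 115.9, 120.0 and 135.0 CPM in Grhl2_cKO replicates 1, 5 and 10, against 131.3, 122.3 and 132.9 CPM in control replicates 1, 3 and 7. The Grhl2_cKO libraries held both the lowest and the highest value of the 6. The log2 fold change was -0.06 ± 0.07 (edgeR adjusted p = 0.868; interval 86.2% to 107% of control), and its span also holds 3 long noncoding RNA genes.

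Pard6b, an adaptor that links the GTPase CDC42 to the kinase (Entrez 58220, chromosome 2, 168081004 to 168101203), was the most variable member. It stood at 72.9, 67.0 and 83.3 CPM in Grhl2_cKO replicates 1, 5 and 10, against 102.2, 66.3 and 68.2 CPM in control replicates 1, 3 and 7. Control replicate 1 stood apart from the other 5 libraries, and the coefficient of variation was 11.04% in Grhl2_cKO and 25.6% in control. The log2 fold change was -0.08 ± 0.15 (edgeR adjusted p = 0.935), and the interval, the widest of the 9, was 74.6% to 119% of control. Without control replicate 1 the log2 fold change was 0.15 ± 0.09, still not called (edgeR adjusted p = 0.536; all alternatives gave 0.536 to 1).

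Prkci, the atypical protein kinase C iota (Entrez 18759, chromosome 3, 30995742 to 31052740), was the member with the smallest p. It stood at 234.8, 239.8 and 237.8 CPM in Grhl2_cKO replicates 1, 5 and 10, against 261.6, 250.2 and 248.3 CPM in control replicates 1, 3 and 7. Every Grhl2_cKO library was below every control library, and each group was narrow, with a coefficient of variation of 1.06% in Grhl2_cKO and 2.85% in control. The log2 fold change of -0.09 ± 0.05 did not pass (edgeR unadjusted p = 0.106, adjusted p = 0.548), and its interval was 86.4% to 102% of control. Prkci and Pals1 were thus 2 of 9 genes (22.2%) whose groups did not overlap, against 18.1% of all tested genes (9.89% with Grhl2_cKO below and 8.17% with it above).

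Of the lateral proteins, Llgl2 encodes a mammalian homologue of the Drosophila protein Lethal giant larvae, which atypical protein kinase C phosphorylates and keeps off the apical membrane (Entrez 217325, chromosome 11, 115824029 to 115855780). It stood at 167.5, 163.8 and 178.3 CPM in Grhl2_cKO replicates 1, 5 and 10, against 196.8, 147.9 and 179.9 CPM in control replicates 1, 3 and 7. All 3 Grhl2_cKO libraries lay inside the control range. The log2 fold change was -0.04 ± 0.09 (edgeR adjusted p = 0.956; interval 84.1% to 112% of control), and it was 0.06 ± 0.08 without control replicate 1 (edgeR adjusted p = 0.849; all alternatives gave 0.535 to 1).

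Control replicate 1 was the highest library for 4 of the 9 genes (Pals1, Pard6b, Prkci and Llgl2). Grhl2_cKO replicate 10 was the highest for another 4 (Crb3, Patj, Pard3 and Marveld3), and control replicate 3 was the lowest for 5. How often each library was highest or lowest over all tested genes was not counted. Control replicate 1 was also the highest for Epcam (558.7 CPM, against 543.6 and 501.4 CPM in the other controls), Cdh1 and the summed ciliated and secretory markers. The part of these differences in Pals1, Pard6b, Prkci and Llgl2 was not tested.

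Epb41l5, a FERM protein that binds Crumbs proteins and restrains the apical domain (Entrez 226352, chromosome 1, 119545032 to 119649096), stood at 82.1, 85.7 and 77.9 CPM in Grhl2_cKO replicates 1, 5 and 10. Control libraries 1, 3 and 7 had 79.2, 84.6 and 88.7 CPM. The groups overlapped, with Grhl2_cKO replicate 10 the lowest and control replicate 7 the highest library (log2 fold change -0.04 ± 0.07, edgeR adjusted p = 0.924, interval 88.0% to 108% of control).

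Marveld3, a tight junction membrane protein related to occludin and tricellulin (Entrez 73608, chromosome 8, 109947909 to 109962205), had the lowest counts of the 9. It stood at 29.5, 31.0 and 33.1 CPM in Grhl2_cKO replicates 1, 5 and 10, against 29.6, 28.3 and 31.8 CPM in control replicates 1, 3 and 7. The groups overlapped, and the highest library was Grhl2_cKO replicate 10 (log2 fold change 0.06 ± 0.08, edgeR adjusted p = 0.888, interval 92.2% to 118% of control).

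The 95% interval of each gene was set for that gene alone, with no adjustment over the 9 genes. Changes outside the intervals are not excluded, since the spread among samples may be technical. For the 8 genes other than Pard6b the intervals ran from 84.1% to 118% of control at their outermost, and for Pard6b from 74.6% to 119%. The genes that were called lower in Grhl2_cKO over the whole table had a median of 58.2% of control. That median is of genes picked by the test, at all count levels. In the range of mean counts of the 9, the smallest called change was 0.23 on the log2 scale, the minimum over 226 called genes. It is not a detection limit for the 9, whose SE ran from 0.051 for Patj to 0.15 for Pard6b. A p that misses the threshold does not show that a gene was at the same level in both genotypes. Differences inside the interval of each gene remain possible with 3 libraries a group.

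**Figure D2:**
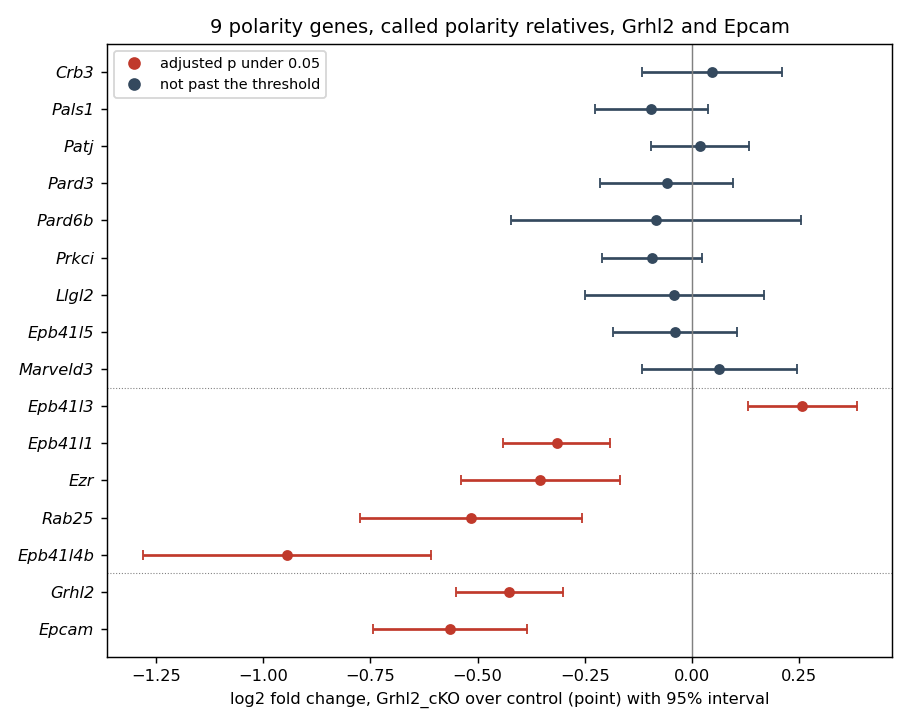
Log2 fold change of Grhl2_cKO over control (points) with 95% intervals from the edgeR fit for the 9 apical polarity genes (top), the 5 called genes of the wider polarity lists (middle) and Grhl2 and Epcam (bottom). All 9 intervals at the top include 0, and the widest is that of Pard6b; the 7 red genes passed an adjusted p of 0.05.

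**Figure D3:**
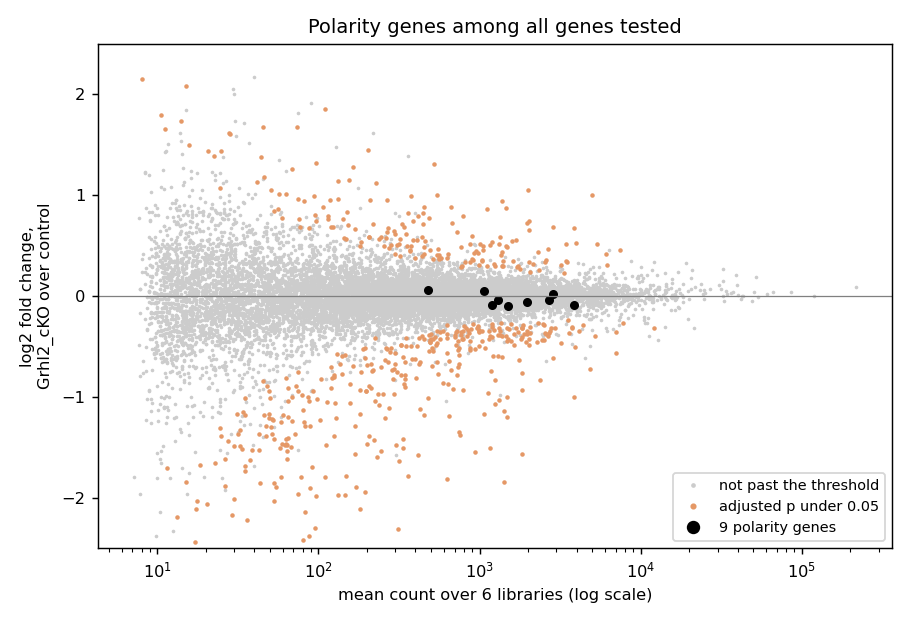
Log2 fold change of Grhl2_cKO over control against the mean count over 6 libraries (log scale) for all 14842 tested genes, with called genes in orange and the 9 apical polarity genes in black. The 9 lie within 0.10 of 0 on the log2 scale; 10 genes beyond 2.5 on the vertical axis are not drawn.

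Levels between genes were compared per length, as RPKM (CPM per kilobase of the gene length in the deposited table). The order of mean RPKM was the same in both genotypes: Crb3, Prkci, Llgl2, Pard6b, Patj, Pals1, Pard3, Epb41l5 and Marveld3. Crb3 averaged 59.4 ± 3.35 RPKM in Grhl2_cKO and 57.5 ± 4.38 RPKM in control (SD, n = 3 each), above 91.5% of tested genes in Grhl2_cKO and 91.2% in control. Marveld3 averaged 9.73 ± 0.57 RPKM in Grhl2_cKO and 9.32 ± 0.55 RPKM in control, near the middle of the tested genes. Prkci and Llgl2 followed Crb3, and the next 5 genes covered 10.6 to 21.9 RPKM in Grhl2_cKO and 10.9 to 23.2 RPKM in control. Neighbours in this order whose libraries overlapped were Pard6b and Patj in both genotypes, Pals1 and Pard3 as well as Epb41l5 and Marveld3 in Grhl2_cKO, and Crb3 and Prkci in control.

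The members have close relatives, so the share of each within its gene family was calculated from RPKM. Crb3 made up 98.5% ± 0.16 of CRB transcripts in Grhl2_cKO and 98.7% ± 0.26 in control (SD, n = 3 each), while Crb2 was low and Crb1, at 0.12 to 0.48 CPM in all libraries, did not pass the filter. Prkci made up 88.9% ± 0.36 of the atypical kinase pair in Grhl2_cKO and 88.2% ± 0.67 in control, with Prkcz as the rest. Pard3 held 75.1% ± 1.76 against Pard3b in Grhl2_cKO and 77.2% ± 1.08 in control. Patj held 65.0% ± 2.41 against Mpdz, a related scaffold, in Grhl2_cKO and 65.7% ± 0.41 in control, and Llgl2 held 60.7% ± 0.99 against Llgl1 in Grhl2_cKO and 61.4% ± 3.24 in control. The PAR6 family was mixed, with Pard6b at 49.8% ± 2.36 in Grhl2_cKO and 51.6% ± 6.37 in control, then Pard6g and Pard6a.

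The groups overlapped in 7 of the 9 families for the share of the listed member. The exceptions were Epb41l5 and Pals1. Epb41l5 made up 52.5%, 58.0% and 54.5% of its family with Epb41l4a and Epb41l4b in Grhl2_cKO replicates 1, 5 and 10, and 43.5%, 48.6% and 48.0% in control replicates 1, 3 and 7. Its own level did not pass the test, and Epb41l4b was lower. Pals1 made up 43.3%, 43.7% and 44.9% of its sum with Pals2, another scaffold partner of LIN7, in Grhl2_cKO replicates 1, 5 and 10, against 47.4%, 45.5% and 49.7% in control replicates 1, 3 and 7. In exact permutation tests over the 9 families, two-sided, both gave p = 0.1, the smallest that 3 against 3 allows, and an adjusted p of 0.36. With that floor no family could pass the threshold used for the genes, so these tests cannot decide whether a share differed. For Epb41l5 and Pals1 the p only restates that the groups did not overlap. Marveld3 held 22.2% ± 0.21 of the tight junction MARVEL genes in Grhl2_cKO and 21.5% ± 1.0 in control, beside Marveld2 and the more abundant Ocln. In each Grhl2_cKO library the share of Marveld2 was above, and that of Ocln below, every control library. Shares of genes other than the listed members were not tested.

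**Figure D4:**
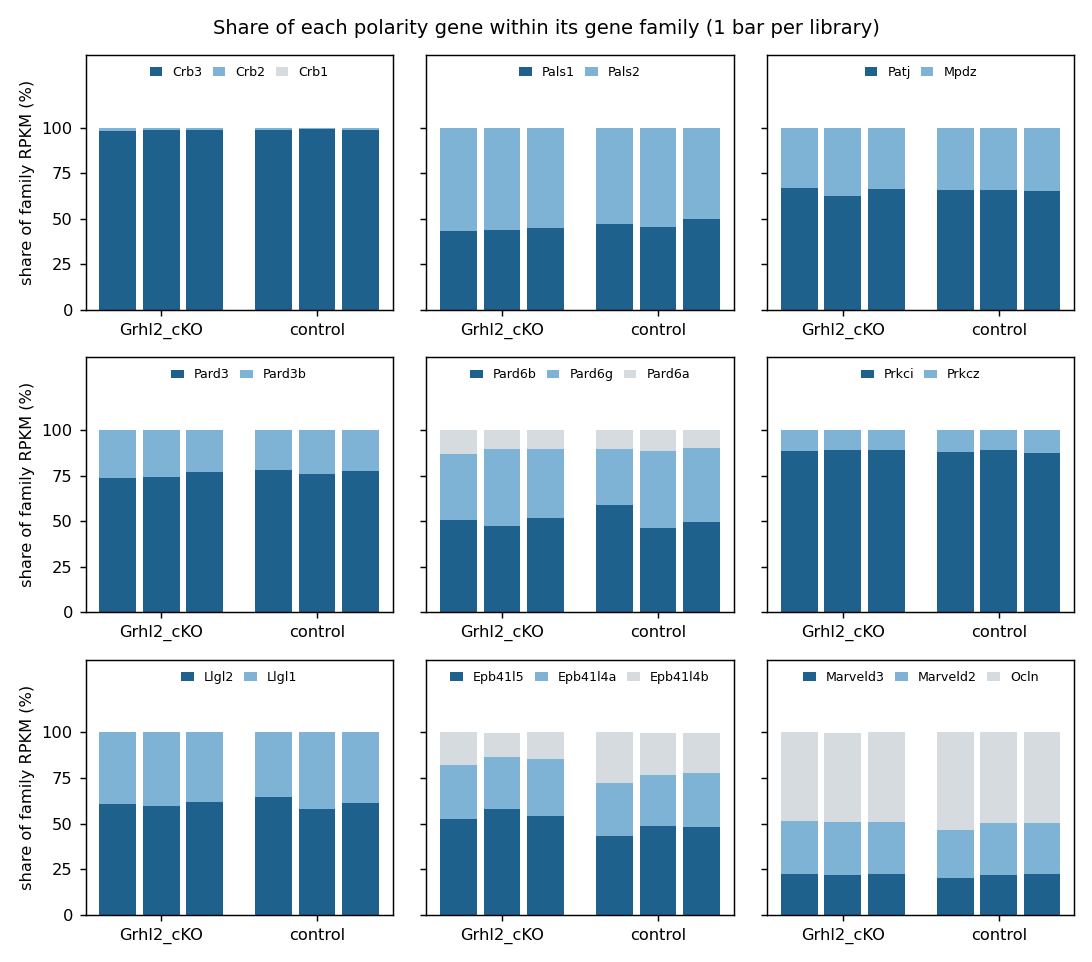
Share of RPKM (%) that each gene holds within its family, 1 bar per library, with Grhl2_cKO replicates 1, 5 and 10 on the left and control replicates 1, 3 and 7 on the right of every panel; the dark segment is the listed member. Crb3 holds over 98% of the CRB family in each library, and the Epb41l4b segment is smaller in each Grhl2_cKO library than in each control library.

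These relatives did not pass the test, except Epb41l4b. Log2 fold changes were 0.25 ± 0.21 for Crb2, 0.06 ± 0.07 for Mpdz, 0.11 ± 0.06 for Pard3b, 0.08 ± 0.16 for Pard6a, 0.04 ± 0.08 for Pard6g and 0.01 ± 0.05 for Llgl1. They were -0.19 ± 0.08 for Prkcz, -0.23 ± 0.09 for Epb41l4a, -0.05 ± 0.08 for Ocln and 0.09 ± 0.07 for Marveld2 (edgeR adjusted p from 0.236 to 0.991). Prkcz was below every control library in each Grhl2_cKO library, at 31.4, 30.0 and 30.0 CPM in replicates 1, 5 and 10, against 36.24, 31.96 and 36.07 CPM in control replicates 1, 3 and 7 (edgeR adjusted p = 0.305). Epb41l4a also lay below, and Pard3b above, every control library.

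The wider polarity machinery was read from 6 lists with 55 further genes, of which 53 were tested, 4 fell and 1 rose, where 2.39% of all tested genes fell and 1.23% rose. The lists were chosen with earlier results of these data known, so these counts are a description only. The groups did not overlap for 18 of the 53, with Grhl2_cKO below in 12 and above in 6, where 9.89% of all tested genes lay below and 8.17% above. Their median log2 fold change was -0.01, beside 0.00 over all tested genes. The other Crumbs complex genes had 0 calls among 9 tested, with a median of 0.03, and the other PAR complex genes 0 among 7, with a median of 0.04. The Scribble module and PAR1 kinases, which act on the basolateral side, had 0 calls among 12, with a median of -0.02. Grhl2_cKO lay below every control library for 4 of the 12 and above for 2, and the groups overlapped for 6. The 12 ran from 89.9% of control for Dlg3 (edgeR adjusted p = 0.230) to 112.3% for Dlg5 (edgeR adjusted p = 0.138). The tumour suppressor scaffold Scrib, of the 6 that overlapped, was at 175.0 CPM in Grhl2_cKO and 175.9 CPM in control. The calls lay in the other lists: 2 lower and 1 higher of 9 FERM and MARVEL relatives, 1 lower of 7 apical membrane linkers and 1 lower of 9 genes of apical vesicle delivery. Without Grhl2_cKO replicate 5 the count of calls among the 53 was 1, without Grhl2_cKO replicate 10 it was 3, and without any other single library it was 2.

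Epb41l4b encodes a FERM protein that promotes actomyosin contraction at the apical junction belt of cultured epithelia, and it had the largest called change in these lists. It stood at 10.6, 7.51 and 8.05 CPM in Grhl2_cKO replicates 1, 5 and 10, against 19.2, 15.7 and 15.6 CPM in control replicates 1, 3 and 7. The groups were well separated (52.0% of control, log2 fold change -0.94 ± 0.15, edgeR adjusted p = 0.00777), and it was called in 17 of 17 alternatives.

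Epb41l1 and Epb41l3, protein 4.1 genes that tie membrane proteins to spectrin and actin, moved in opposite directions. Epb41l1 fell to 86.3, 80.8 and 86.3 CPM in Grhl2_cKO replicates 1, 5 and 10, against 105.7, 102.8 and 106.8 CPM in control replicates 1, 3 and 7 (log2 fold change -0.32 ± 0.06, edgeR adjusted p = 0.0138). It was not called without Grhl2_cKO replicate 5 (adjusted p = 0.0716), without control replicate 7 (0.0552) or in male libraries alone (0.0925), in a range of 0.00344 to 0.0925. Epb41l3 rose to 156.9, 157.0 and 168.4 CPM in Grhl2_cKO, against 135.2, 138.6 and 129.7 CPM in control (log2 fold change 0.26 ± 0.06, edgeR adjusted p = 0.0363). No group overlapped for either gene, but Epb41l3 lost its call in each of the 6 fits without 1 library, with sex in the model and in male libraries alone (adjusted p from 0.0105 to 0.208 over its alternatives).

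Ezr, which encodes ezrin, the linker of apical membrane to actin, fell to 376.8, 372.7 and 432.5 CPM in Grhl2_cKO replicates 1, 5 and 10, against 555.4, 476.6 and 479.0 CPM in control replicates 1, 3 and 7. The log2 fold change was -0.35 ± 0.08 (edgeR adjusted p = 0.0472), a call made in 7 of 17 alternatives. It was lost without each library other than Grhl2_cKO replicate 10, under RLE and upper-quartile scaling, in the legacy fit, with sex in the model and in male libraries alone (adjusted p from 0.00178 to 0.186). Ezrin is also made in ciliated and secretory airway cells, whose markers were lower in the same libraries, and their part in this difference was not tested.

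Rab25, a small GTPase of apical recycling, stood at 50.2, 39.6 and 48.8 CPM in Grhl2_cKO replicates 1, 5 and 10, against 77.3, 61.9 and 59.1 CPM in control replicates 1, 3 and 7. The decrease, to 70.0% of the control mean, passed the test (edgeR adjusted p = 0.0394) but did not hold with sex in the model or without each library other than control replicate 7 (adjusted p from 0.00115 to 0.129).

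Grainyhead-like factors are known to bind the motif AACCNGTT (reverse complement AACNGGTT), so RefSeq promoter windows on GRCm38.p6, 250 bases before to 50 after a start, were searched on both strands. Windows were at hand for 5 of the 9 genes, Crb3, Patj, Pard3, Pard6b and Prkci, with 9 windows in all. None of the 9 windows held the motif, which occurred in 2.09% of all 32851 windows and in 1.8% of the windows of tested genes. The 9 windows had a GC content of 48.3% to 78.7%. Among the 5 called relatives, 1 window held a match, that of Rab25 (chr3:88548230-88548529, minus strand). It is printed here as the only window with the motif among those searched for the 5 members at hand and these 5 relatives, and the match, in capitals, begins 102 bases before the start.
Rab25 promoter: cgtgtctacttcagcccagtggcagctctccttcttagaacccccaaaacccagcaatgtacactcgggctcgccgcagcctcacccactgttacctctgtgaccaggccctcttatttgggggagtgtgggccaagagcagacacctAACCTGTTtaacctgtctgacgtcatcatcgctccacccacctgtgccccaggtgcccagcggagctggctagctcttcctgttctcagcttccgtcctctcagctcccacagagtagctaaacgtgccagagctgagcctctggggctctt
A match in such a window is a description of its letters and not a bound site, and windows without it say nothing about binding elsewhere.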

How the data were processed

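Gene counts came from EpCAM-positive cells of 6 embryonic lung samples. The authors deposited 1 table of raw read counts with a gene length per Entrez identifier (27179 genes, 6567 at 0 in every library). Per the submitters' processing notes, bcl2fastq 2.17.1.14, featureCounts, edgeR 3.16.5, limma 3.30.12 and the mm10 build were used. The sources used here do not name the aligner, the strand setting or the treatment of multi-mapping reads. Libraries were made with a stranded mRNA kit, per the labels. Symbols and coordinates came from RefSeq on GRCm38.p6 (25275 identifiers matched, 92.99%).

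The test was edgeR 4.0.16 in R 4.3.3: a filterByExpr filter (count 10, total 15) that kept 14842 genes and left out 12337, TMM factors (0.981 to 1.009), estimateDisp, glmQLFit (legacy set to FALSE) and glmQLFTest with no covariate, and Benjamini-Hochberg adjustment over all tested genes at 0.05. Standard errors were recovered from the F statistic, and 95% intervals use its t distribution. The dispersion estimate gave a biological coefficient of variation of 9.52%. CPM and RPKM values were computed from the counts. The level of 3 counts lay between 0.178 and 0.224 CPM, which covers counting error only.

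Members and gene lists were chosen with earlier results of these data known. Named genes were Grhl2, Epcam, the 9 members, called genes of the 6 polarity lists, 12 near relatives and the 5 genes nearest to the member with the smallest p, of which 1 is not reported here. Pals2, Scrib, Dlg3, Dlg5, Cdh1, Sftpc, Ptprc, Myh7, Hba-a1 and Uchl1 were added after values were seen. Family shares were also added after values were seen. Alternatives were other scalings, filters and tools (DESeq2 1.42.0, limma-voom from limma 3.58.1), the robust and legacy fits, a term for sex, male libraries alone and each library left out.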

Additional observations from a re-analysis of the deposited data

How the results depend on the processing

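The 9 genes were fitted under 17 alternatives each, and 0 of these 153 fits gave a call (lowest adjusted p 0.504). The sign changed in 4 of them: Pard3 was 0.0090 (log2) in male libraries alone, Pard6b 0.15 and Llgl2 0.061 without control replicate 1, and Crb3 -0.0044 without control replicate 3. Of the relatives, Pard6a was -0.10 in male libraries alone, -0.0029 without Grhl2_cKO replicate 1 and -0.019 without control replicate 7. Ocln was 0.0043 in male libraries alone, 0.0027 without Grhl2_cKO replicate 1 and 0.035 without control replicate 1. Mpdz was -0.016 without Grhl2_cKO replicate 5 and Llgl1 -0.013 without control replicate 3. Without 1 library each, the log2 value of every member moved by over 1.5 times at 1 end or the other: -0.0044 to 0.11 for Crb3, -0.13 to -0.056 for Pals1, 0.0039 to 0.030 for Patj, -0.12 to -0.015 for Pard3, -0.20 to 0.15 for Pard6b, -0.11 to -0.061 for Prkci, -0.15 to 0.061 for Llgl2, -0.073 to -0.00028 for Epb41l5 and 0.022 to 0.11 for Marveld3. So did 7 of the relatives: 0.049 to 0.50 for Crb2, -0.016 to 0.12 for Mpdz, -0.019 to 0.18 for Pard6a, 0.0060 to 0.10 for Pard6g, -0.013 to 0.039 for Llgl1, -0.12 to 0.035 for Ocln and 0.056 to 0.13 for Marveld2. Calls among the other polarity genes numbered 2 with sex as a covariate, 2 in male libraries alone and 1 to 3 without 1 library, against 5. Over all genes, 249 to 504 were called without 1 library against 537 (lower 166 to 338 against 355, higher 78 to 221 against 182), and 90 higher in male libraries alone. The median log2 fold change of all genes was -0.0039, and -0.0059 to 0.011 under the other scalings. The motif AACCGGTT gave 0 of the 5 members with windows, as AACCNGTT did, but it did not match the Rab25 window that AACCNGTT matched. No paired analysis was possible because the groups share only the number 1. With 3 libraries a group, changes inside the stated interval of each gene remain possible.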

Other observations

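Prkci was the member with the smallest p, and the genes whose profile over the 6 libraries lay nearest to it were found by the root mean square difference of log2 CPM, each gene centred on its own mean, among 12368 other tested genes whose counts averaged at least 50. Among the 5 nearest were Exoc6b, a subunit of the exocyst (0.012), the galactosyltransferase gene B4galt1 (0.017), Pdcd6ip, which encodes the membrane remodelling protein ALIX (0.019), and the phosphodiesterase gene Pde5a (0.019). Exoc6b stood at 88.0, 88.8 and 89.8 CPM in Grhl2_cKO replicates 1, 5 and 10, against 97.5, 95.1 and 93.3 CPM in control replicates 1, 3 and 7. These 4 genes were picked for their likeness to Prkci in the same libraries, so fold changes and test results close to its own follow from the choice. Their log2 fold changes were -0.11 to -0.09 and none was called (edgeR adjusted p from 0.461 to 0.662, and 0 of 4 at an unadjusted p under 0.05).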
